A study of Drosophila melanogaster with 12 samples.

Results

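Heads of adult fruit flies (Drosophila melanogaster, genotype y w; tim01) collected in light at hours 2, 6 and 10 of the day were set against heads collected in darkness at the same hours of the next day. The lit arrays are those titled ZT2, ZT6 and ZT10, and the dark arrays are those titled CT2, CT6 and CT10, so that 6 of the 12 arrays of the series enter the comparison, as 3 pairs that share a clock hour and lie 24 h apart. The lit group is called LD light (a day of 12 h of light and 12 h of darkness, hours counted from lights-on) and the dark one DD subjective day (constant darkness, hours counted from the time when lights would have come on). The other 6 arrays, LD dark (ZT14, ZT18, ZT22) and DD subjective night (CT14, CT18, CT22), were both taken in darkness and served to set the same day-to-day difference at hours when lighting was alike. LD dark followed lit hours of the same day, and DD subjective night did not. Both also entered the fit, so the SE and p of the day comparison rest in part on the spread of the night pairs.

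All groups share the genotype: the tim01 mutation of timeless, which stops the circadian clock, and the mutations y and w of body and eye colour. Flies had spent 3 days under light and dark cycles, a sample held about 100 to 200 heads taken from frozen flies with sieves, and cRNA from about 25 µg of total RNA was hybridised to Affymetrix arrays. There was 1 array per time, so the 3 arrays of a group differ in hour and are not replicates of 1 condition. The sources used here do not give the age, sex or food of the flies. The lit day always came first, so lighting, day of collection and age cannot be told apart.

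In a fly head most light reaches the compound eyes. Photons isomerise the retinal-derived chromophore of rhodopsin, a G protein and a phospholipase open the TRP and TRPL channels, and the photoreceptors release histamine, which must be recycled. Light also resets the clock by way of cryptochrome and the breakdown of TIM protein. In tim01 flies that route has no working clock to act on, so a comparison of light and darkness at matched hours addresses responses that need no clock, in eyes, brain, fat body and feeding.

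Values are log2 expression values made with RMA, a method that corrects background, makes arrays comparable and gives 1 value for each set of probes. All differences are LD light minus DD subjective day on that log2 scale, so that a positive value means more in light. Of 14010 probe sets, 13966 were tested after 44 controls were left out. Correlations across probe sets between the 6 arrays lay between 0.992 and 0.996. The array median was 4.092, 4.101 and 4.088 at ZT2, ZT6 and ZT10, against 4.0, 4.092 and 4.087 at CT2, CT6 and CT10, so CT2 was lower as a whole. The median difference between the groups was 0.07 at hour 2, 0.00 at hour 6 and 0.01 at hour 10. The transcript of tim was measured at 6.78, 6.59 and 6.44 in LD light, against 6.57, 6.75 and 6.58 in DD subjective day, and y at 4.78, 4.75 and 4.82 in LD light, against 4.84, 4.83 and 4.70 in DD subjective day. Whether these probe sets cover the mutated bases is not known here, and w is not named by the annotation used, so they do not check the genotype.

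Markers of the labelled tissue were present in every array. The 25 neuron genes averaged 5.15, 5.01 and 5.07 in LD light, against 4.89, 5.04 and 5.07 in DD subjective day, and no member had a mean below the lower quartile of the arrays; the same held for the 21 phototransduction genes. Body tissues that a sieved head sample can carry were measured too. Their score, a mean of standardised midgut, male reproductive and thorax muscle genes, was -0.72, -0.36 and -0.39 in LD light, against -1.03, -0.54 and 0.20 in DD subjective day, so the highest of the 6 was CT10. At night the score was -0.62, 0.11 and 0.31 in LD dark, against 1.01, 1.22 and 0.81 in DD subjective night. The DD night arrays were thus the highest of the series, and the night pairs were not alike in this score. Midgut genes averaged 4.26, 4.91 and 4.46 in LD light, against 4.23, 4.40 and 5.07 in DD subjective day, with 8 of 23 members below the lower quartile, and male germline and accessory gland genes 3.48, 3.88 and 3.95 in LD light, against 3.49, 3.75 and 4.39 in DD subjective day, with 15 of 38 below it. The difference in the 3′ to 5′ signal of the GAPDH control, a measure of RNA integrity, was 2.30 to 2.42 in LD light and 2.19 to 2.31 in DD subjective day. In a fit with the score as a covariate (3 residual degrees of freedom, no term for RNA integrity), the same single gene, CG5455, passed (limma adjusted p = 0.0449). The part of body tissue and RNA integrity in the gene results was not tested.

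Between light and darkness at the same hours a single transcript passed the threshold. CG5455 rose in light, and 0 probe sets fell, in limma with clock hour as a block (Benjamini-Hochberg adjusted p under 0.05), so 0.00716% of the probe sets were called. At an unadjusted p under 0.05 there were 1132 probe sets. As a description that needs no model, all 3 lit arrays lay above all 3 dark-day arrays for 1349 probe sets (9.66%) and below them for 553 (3.96%). The balance of directions depended on the scaling. Of the probe sets without overlap, 70.9% were higher in light as deposited, 43.8% when every array was centred on its median (823 above and 1055 below), and 51.1% after a new quantile normalization (956 and 916). The pair differences had an SD across probe sets of 0.17 at hour 2, 0.16 at hour 6 and 0.18 at hour 10. They had little in common across probe sets, with Pearson's r of 0.185 between hours 2 and 6, 0.056 between hours 2 and 10, and -0.052 between hours 6 and 10, as a description over 13966 probe sets read from the same 6 arrays. Differences over 0.5 upward and downward numbered 155 and 28 at hour 2, 55 and 31 at hour 6, and 25 and 104 at hour 10.

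CG5455, for which no role is stated here, was the transcript that rose. It measured 5.92, 6.06 and 5.94 at ZT2, ZT6 and ZT10, against 5.25, 5.51 and 5.31 at CT2, CT6 and CT10. Every lit array lay above every dark-day array, and above all 6 night arrays, which ranged from 5.29 to 5.64. The difference of 0.62 (SE 0.070, limma adjusted p = 0.0492), a 1.54-fold ratio, was 0.68, 0.55 and 0.64 at hours 2, 6 and 10. The same probe set differed by 0.15 between the nights. The call lies close to the threshold and was lost without any 1 of the day pairs (adjusted p = 0.306 to 0.586), without the hour 18 pair (0.0764), without the block (0.107) and with both other scalings (0.0613 and 0.0687). The count of called probe sets was 3 without the hour 14 pair and 2 without the hour 22 pair.

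The next genes by p among those higher in light did not pass. They include protein folding genes, an immune regulator and a protease of the ubiquitin system. CCT8, a subunit of the chaperonin that folds actin and tubulin, measured 5.78, 5.71 and 5.58 in LD light, against 5.20, 5.33 and 5.14 in DD subjective day, a difference of 0.47 (SE 0.066, limma adjusted p = 0.185). Usp8, a deubiquitinase reported to act on the clock activator CLK, measured 6.94, 7.25 and 6.92 in light, against 6.33, 6.26 and 6.17 in DD, the widest gap of the 8 named, at 0.78 (SE 0.139, limma adjusted p = 0.276) or a 1.72-fold ratio. For both genes the 2 groups did not overlap. Usp8 was also high in the first dark array after lights-off, at 7.06 at ZT14, against 6.27 at CT14. PGRP-LB, an amidase that breaks down bacterial peptidoglycan and so dampens the Imd immune pathway, measured 5.36, 5.37 and 5.38 in light, against 4.99, 5.07 and 5.04 in DD, and differed by 0.34 (SE 0.061, limma adjusted p = 0.276). Its 3 lit values lay within 0.02 of each other, and all dark arrays of both days were lower.

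CaBP1, an endoplasmic reticulum protein of the disulfide isomerase family, measured 5.33, 5.34 and 5.19 in LD light, against 4.80, 4.87 and 4.97 in DD subjective day, a difference of 0.41 (SE 0.076, limma adjusted p = 0.276). Hsp110, a nucleotide exchange factor for Hsp70 chaperones, measured 4.05, 3.96 and 3.76 in light, against 3.30, 3.61 and 3.46 in DD, a difference of 0.47 (SE 0.087, limma adjusted p = 0.276). In both the gap was widest at hour 2, where CT2 gave the lowest value. CG2082 at 5.82, 6.03 and 6.14 in light, against 5.44, 5.601 and 5.62 in DD, and CG15439 at 3.66, 3.65 and 3.74 in light, against 3.32, 3.36 and 3.33 in DD, differed by 0.44 (SE 0.085, limma adjusted p = 0.276) and 0.34 (SE 0.068, adjusted p = 0.306). The groups did not overlap for any of these 4 genes.

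**Figure D1:**
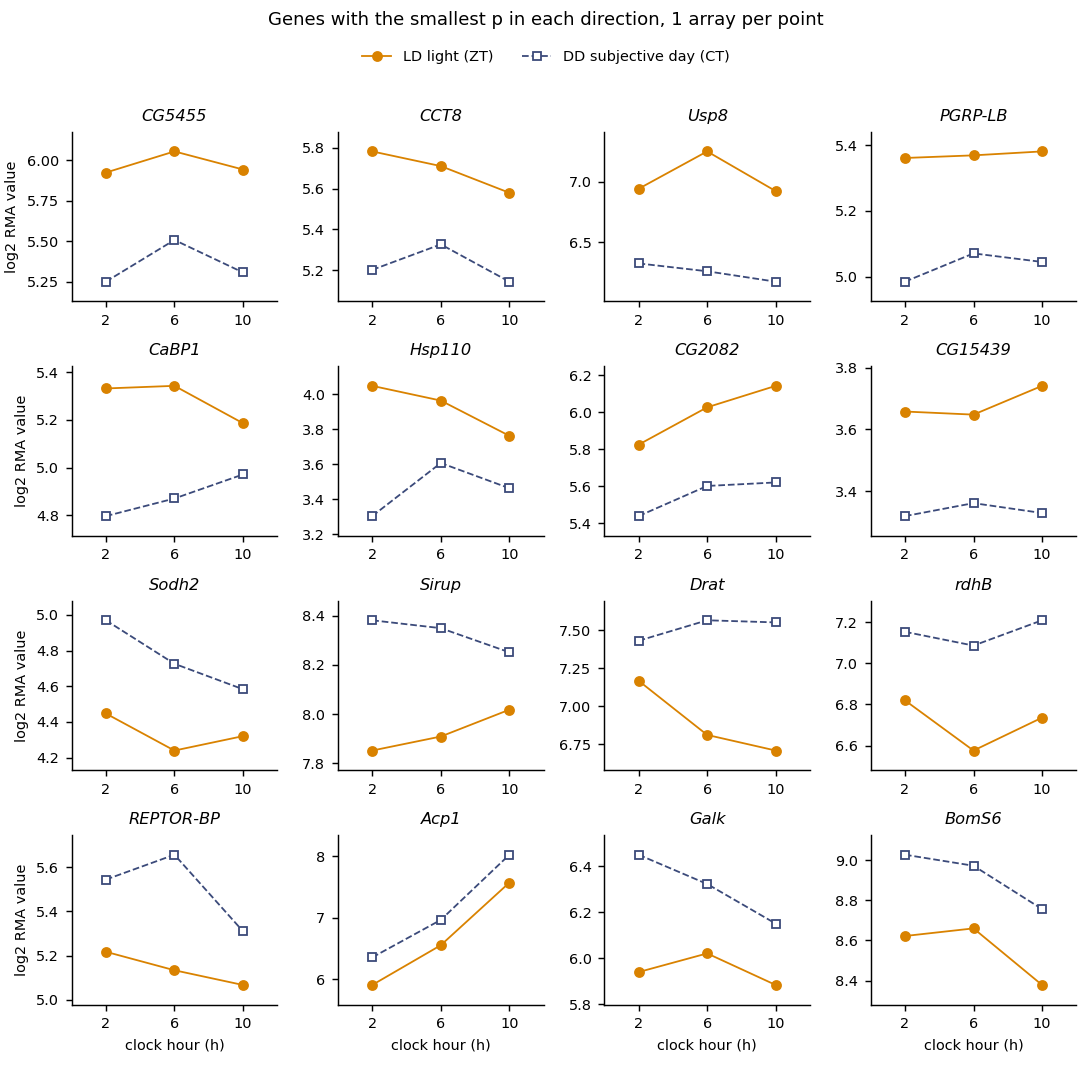
Log2 RMA values (y axis, scaled per panel) at clock hours 2, 6 and 10 (x axis) for the 8 genes with the smallest p among those higher in light (upper panels) and the 8 among those lower in light (lower panels); filled circles are LD light, open squares DD subjective day, 1 array per point. The curves stay apart at every hour, and only the groups of Acp1 overlap in value, since it runs from 5.90 to 7.57 in LD light and from 6.35 to 8.03 in DD subjective day.

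Among genes lower in light, 0 passed, and the 8 with the smallest p included metabolic enzymes, a chromophore gene, an immune peptide and a cuticle protein. Drat, whose product has an alcohol dehydrogenase domain, measured 7.17, 6.81 and 6.71 in LD light, against 7.43, 7.57 and 7.55 in DD subjective day, a difference of -0.62 (SE 0.117, limma adjusted p = 0.276). The gap was larger at the later hours, at -0.26, -0.76 and -0.84. Sirup, an assembly factor of mitochondrial complex II, measured 7.85, 7.91 and 8.02 in light, against 8.38, 8.35 and 8.25 in DD, and differed by -0.40 (SE 0.073, limma adjusted p = 0.276). There the gap was smaller at the later hours, at -0.53, -0.44 and -0.23. In both genes each lit array was below all 9 dark arrays of the series. Sodh2, a sorbitol dehydrogenase, measured 4.45, 4.24 and 4.32 in light, against 4.97, 4.73 and 4.58 in DD, and differed by -0.42 (SE 0.076, limma adjusted p = 0.276).

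REPTOR-BP, the partner of a transcription factor that acts when TORC1 signalling is low, measured 5.22, 5.13 and 5.07 in LD light, against 5.54, 5.66 and 5.31 in DD subjective day, a difference of -0.37 (SE 0.072, limma adjusted p = 0.306). Galk, a galactokinase, measured 5.94, 6.02 and 5.88 in light, against 6.45, 6.32 and 6.15 in DD, a difference of -0.36 (SE 0.071, limma adjusted p = 0.306). BomS6, one of the short secreted Bomanin peptides of the Toll response, measured 8.62, 8.66 and 8.38 in light, against 9.03, 8.97 and 8.76 in DD, a difference of -0.36 (SE 0.074, limma adjusted p = 0.32). The 2 groups of each gene did not overlap. Of the 16 genes with the smallest p, among them rdhB and Acp1, 5 of the 8 higher ones lay above all 9 dark arrays and 5 of the 8 lower ones below them, where 1.37% and 0.444% of all probe sets did. These genes were picked for their p in this contrast, so their counts are a description.

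The adult cuticle protein gene Acp1 was the transcript whose difference between the days was another by day than by night. It measured 5.90, 6.55 and 7.57 at ZT2, ZT6 and ZT10, against 6.35, 6.96 and 8.03 at CT2, CT6 and CT10, so that it was higher at each later hour on both days and each lit array was lower than its partner, by 0.45, 0.41 and 0.46 log2 units. The groups overlap in value, since the hours lay further apart than the groups, and the difference of -0.44 (SE 0.087, limma adjusted p = 0.306) did not pass. At night the order was the other way, with 7.01, 7.43 and 7.33 at ZT14, ZT18 and ZT22, against 6.35, 6.87 and 6.29 at CT14, CT18 and CT22, a difference of 0.75 (SE 0.087). That night difference, between arrays all taken in darkness, passed the threshold (limma adjusted p = 0.00957), while the day difference did not. The day difference minus the night difference was -1.19 (SE 0.123, limma adjusted p = 0.0196), and this was the single probe set of 13966 called (0.00716%), with 1096 at an unadjusted p under 0.05. Without the clock hour block its adjusted p was 0.665, without any 1 day pair it was 0.057 to 0.274, and without the hour 14 pair it was 0.0677. The count of called probe sets was 0 without the pair at hour 2, 6 or 14 and 76 without the one at hour 22. Among those 76 were testis, accessory gland and gut genes, such as Mst84Da, Acp36DE and Mal-A1. The body-tissue score was highest in the DD night arrays, and its part in these calls was not tested.

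For most of the other leading genes the nights lay closer together than the days, though the difference of differences did not pass. These genes were picked for their p by day, which favours a smaller difference at night, so this is a description. Over all probe sets the mean night difference had the wider spread, with an SD of 0.164, against 0.103 by day. Some genes outside the leading ones passed between the nights. Among them were Act88F at -1.35 (limma adjusted p = 0.0054) and SP at -1.34 (limma adjusted p = 0.0346), both from lists of the body-tissue score. Sirup had 0.29 at night, against -0.40 by day, so the 2 differ by -0.69 (SE 0.104, limma adjusted p = 0.126). Drat, at 0.12 at night, differed from its day value by -0.74 (adjusted p = 0.326), and PGRP-LB, at -0.11, by 0.45 (adjusted p = 0.215). CCT8 was at 0.00 at night. CG2082 stood apart from these, at 0.30 at night and 0.44 by day, a difference of 0.14 (adjusted p = 0.824). Across all probe sets the day and night differences had an r of 0.147.

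**Figure D2:**
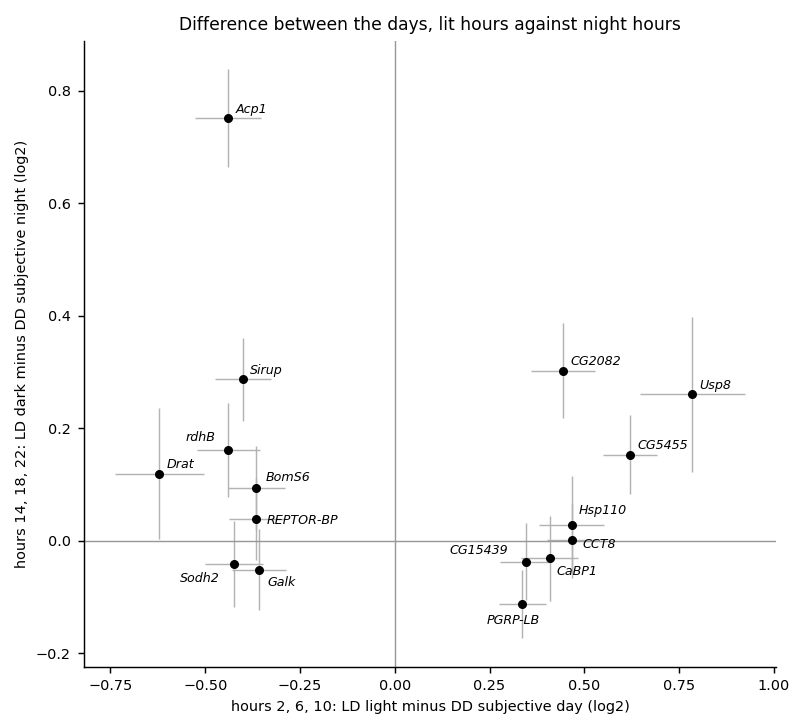
Difference at hours 2, 6 and 10 (x axis, LD light minus DD subjective day, log2) against the difference at hours 14, 18 and 22, when both days were dark (y axis, LD dark minus DD subjective night, log2), for the 16 leading genes, which were picked for their p by day. Points are limma estimates, each the mean of 3 pairs. Bars are 1 SE from the spread over the whole fit, so a gene has the same SE on both axes. Acp1 stands alone at -0.44 by day and 0.75 by night, and the other 15 genes lie between -0.11 and 0.30 on the night axis.

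Heat shock and chaperone genes were mostly higher in light, most of all at hour 2. Of 23 measured members 20 had a positive difference, 0 passed the test in either direction, and the median was 0.17, against 0.03 over all probe sets. With arrays centred on their medians these medians were 0.14 and -0.01. In 6 members all lit arrays lay above all dark-day arrays (26.1%, where 9.66% of all probe sets did) and in 0 below. That count was 6 with either other scaling, where 5.89% or 6.85% of all probe sets lay above. Without the hour 2 pair, and so with 2 arrays against 2, it was 7 (30.4%, against 19.3% of all probe sets), without the hour 6 pair 10 (43.5%, against 25.4%) and without the hour 10 pair 16 (69.6%, against 26.2%). The list's median was 0.30, 0.17 and 0.01 at hours 2, 6 and 10, and 20 of the 23 had a larger difference at hour 2 than at hour 10, as did 62.4% of all probe sets. The median at night was 0.00.

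The members without overlap were mainly subunits of the CCT chaperonin. CCT2 measured 7.51, 7.49 and 7.27 in LD light, against 6.89, 6.96 and 7.06 in DD subjective day, a difference of 0.45 (SE 0.119, limma adjusted p = 0.422). A lower probe set of CCT2 (mean 5.14) differed by 0.08 and its groups overlapped. CCT1 at 6.29, 6.39 and 6.17 in light, against 5.93, 6.03 and 5.99 in DD, differed by 0.30 (SE 0.069, limma adjusted p = 0.372). The CCT subunits together form the rings of the complex. CCT5 at 5.34, 5.39 and 5.12 in light, against 5.01, 5.02 and 4.92 in DD, differed by 0.30 (SE 0.079, limma adjusted p = 0.422). The 8 measured subunits had a median of 0.24, and CCT4 alone was lower in light, at -0.02; these subunits were grouped after their values were seen. The small heat shock protein gene l(2)efl, at 7.44, 7.53 and 7.43 in light, against 7.18, 7.36 and 7.35 in DD, was the remaining member without overlap, at 0.17.

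Other chaperones had differences of both signs within the day. Hsc70-4, the constitutive cytosolic Hsp70, measured 9.13, 8.88 and 8.65 in LD light, against 8.22, 8.61 and 8.85 in DD subjective day. It was lower at each later lit hour and higher at each later dark one, so the difference was 0.91, 0.27 and -0.20 and the groups overlapped. DnaJ-1, an Hsp40 cochaperone, was at 0.79, 0.12 and -0.05 at the 3 hours, and Hsp68, an inducible Hsp70, at 0.47, -0.13 and 0.25. The heat shock transcription factor gene Hsf had a mean difference of -0.03 and Hsp27 of -0.09. For stv, an Hsp70 cochaperone of the BAG family, the probe set with the higher mean differed by 0.14, while the other (mean 5.37) measured 6.07, 5.65 and 5.599 in light, against 4.86, 5.18 and 5.21 in DD, a difference of 0.69 (SE 0.142, limma adjusted p = 0.32) without overlap; that probe set was named after its values were seen.

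**Figure D3:**
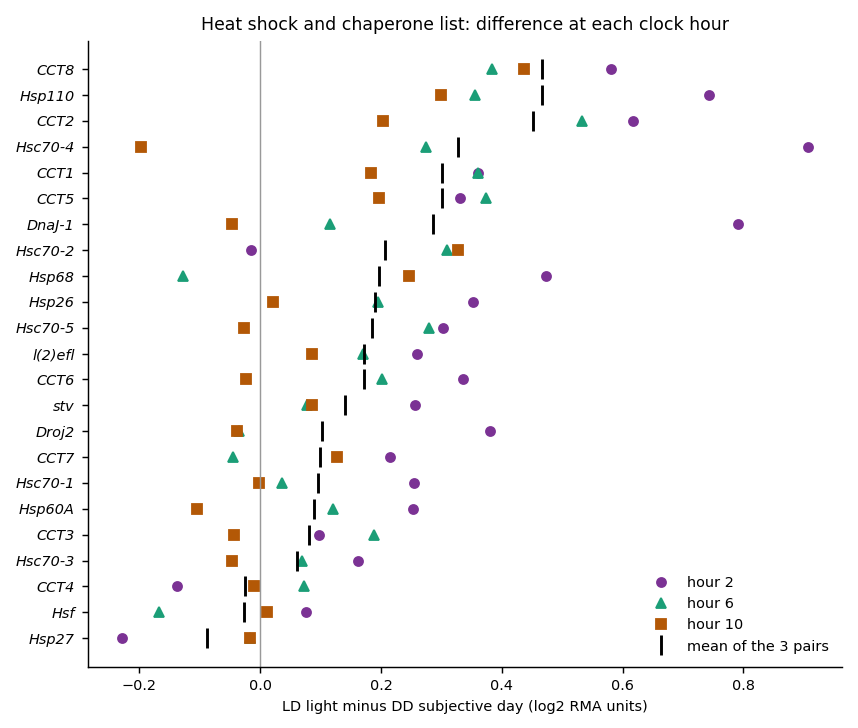
Difference between LD light and DD subjective day (x axis, log2 RMA units) for the 23 measured heat shock and chaperone genes (y axis, ordered by the mean difference); circles, triangles and squares are the pairs at hours 2, 6 and 10, 1 array against 1, and bars the mean of the 3. The hour 2 circles reach furthest right, up to 0.91 for Hsc70-4, and the list's median by hour was 0.30, 0.17 and 0.01.

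Protein folding genes of the endoplasmic reticulum leaned the same way by less. Of 23 measured genes 22 were higher in light, 0 passed, and the median was 0.06, against 0.03 over all probe sets. With arrays centred on their medians these medians were 0.03 and -0.01. Some of the 22 differed by less than that shift, such as Der-1 and crc at 0.01 each, so the count of 22 depends on the scaling. All lit arrays lay above all dark-day arrays in 5 (21.7%, against 9.66% of all probe sets), and in 5 and 4 under the quantile and median scalings, where 6.85% and 5.89% of all probe sets did. Without the hour 2 pair the count was 8 (34.8%, against 19.3% of all probe sets), without the hour 6 pair 6 (26.1%, against 25.4%, so near the background) and without the hour 10 pair 15 (65.2%, against 26.2%). One beside CaBP1 was Pdi, a protein disulfide isomerase, at 8.49, 8.51 and 8.50 in LD light, against 8.27, 8.30 and 8.42 in DD subjective day. The others were Edem2, which sorts misfolded glycoproteins for breakdown, at a difference of 0.19, sip3, a ubiquitin ligase of that route, at 0.18, and Sil1, an exchange factor for the resident Hsp70, at 0.17. Gp93, the resident Hsp90, was at 0.69, 0.30 and -0.04 at hours 2, 6 and 10. The list's median was 0.14, 0.09 and -0.01 at these hours. Proteasome genes were near the background, with 5 of 40 above (12.5%, against 9.66% of all probe sets) and 1 below (2.5%, against 3.96%) without overlap and a median of 0.00.

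Genes of vision had differences of both signs. Of 35 names written for phototransduction 13 were not matched to a named probe set, so the list covers only part of the pathway. Among 21 phototransduction genes 1 lay above without overlap (4.76%, against 9.66% of all probe sets) and 2 below (9.52%, against 3.96%), 0 passed, and the median was -0.02. The gene above, trpl, and 1 of those below, rdgC, had been named by earlier results of these same data, so the shares are only a description. The channel gene trpl measured 9.59, 9.90 and 9.60 in LD light, against 9.33, 9.48 and 9.23 in DD subjective day, a difference of 0.35 (SE 0.082, limma adjusted p = 0.372). Gbeta76C, the G protein β subunit of the eye, measured 8.51, 8.28 and 8.32 in light, against 8.71, 8.78 and 8.66 in DD, a difference of -0.34 (SE 0.127, limma adjusted p = 0.558). The rhodopsin phosphatase gene rdgC, at 4.45, 3.88 and 4.42 in light, against 4.62, 4.87 and 4.48 in DD, rests on hour 6, with -0.17, -0.99 and -0.06 by hour. Culd, which helps to clear rhodopsin and TRPL from the photoreceptor membrane, measured 7.52, 7.16 and 6.83 in light, against 7.65, 7.77 and 7.45 in DD; it differed by -0.45 (SE 0.107, limma adjusted p = 0.372), and ZT2 overlapped with CT10.

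In the visual cycle, 2 dehydrogenase genes had lower values in light. The retinol dehydrogenase gene rdhB, which acts in chromophore synthesis, measured 6.82, 6.58 and 6.74 in LD light, against 7.15, 7.09 and 7.21 in DD subjective day, a difference of -0.44 (SE 0.083, limma adjusted p = 0.276), and each lit array was below all 9 dark ones. Pdh, a retinol dehydrogenase that recycles chromophore, measured 9.12, 8.88 and 8.996 in light, against 9.16, 9.25 and 9.40 in DD, a difference of -0.27 (SE 0.089, limma adjusted p = 0.521), with almost no gap at hour 2. Neither passed. These 2 of 9 members without overlap (22.2%, against 3.96% of all probe sets) had 0 counterparts above, and pinta, a retinoid-binding protein gene, was at -0.19 with overlap. Of the 2, rdhB had been named by earlier results of these same data, so the share is only a description.

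Among 11 genes of histamine handling and the photoreceptor synapse 2 lay above without overlap (18.2%, against 9.66% of all probe sets), CarT and brp, and 0 below; the median was -0.02 and 0 passed. The gene with the widest gap was t, while Hdc, which makes histamine, and its receptor gene ort were at -0.02 and -0.02. The gene t (tan), whose hydrolase frees histamine from carcinine, measured 6.66, 5.95 and 5.596 in LD light, against 6.74, 6.87 and 6.604 in DD subjective day. The pairs were alike at hour 2 and about 1 log2 unit apart at hour 10, with -0.08, -0.92 and -1.01 by hour, so that ZT2 overlapped with the dark arrays. Its mean difference was -0.67 (SE 0.208, limma adjusted p = 0.503). At night t was still lower after the lit day, at 5.47, 6.07 and 6.51 in LD dark, against 6.86, 6.601 and 6.73 in DD subjective night. CarT, the transporter that takes carcinine up into photoreceptors, went the other way at 2.70, 2.83 and 2.90 in light, against 2.61, 2.36 and 2.36 in DD, a difference of 0.36 (SE 0.129, limma adjusted p = 0.55); its level is below the lower quartile of the arrays, and its second probe set, with a mean of 1.76, differed by 0.02. The active zone gene brp measured 4.59, 4.69 and 4.69 in light, against 4.25, 4.499 and 4.47 in DD, a difference of 0.25 (SE 0.073, limma adjusted p = 0.464).

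**Figure D4:**
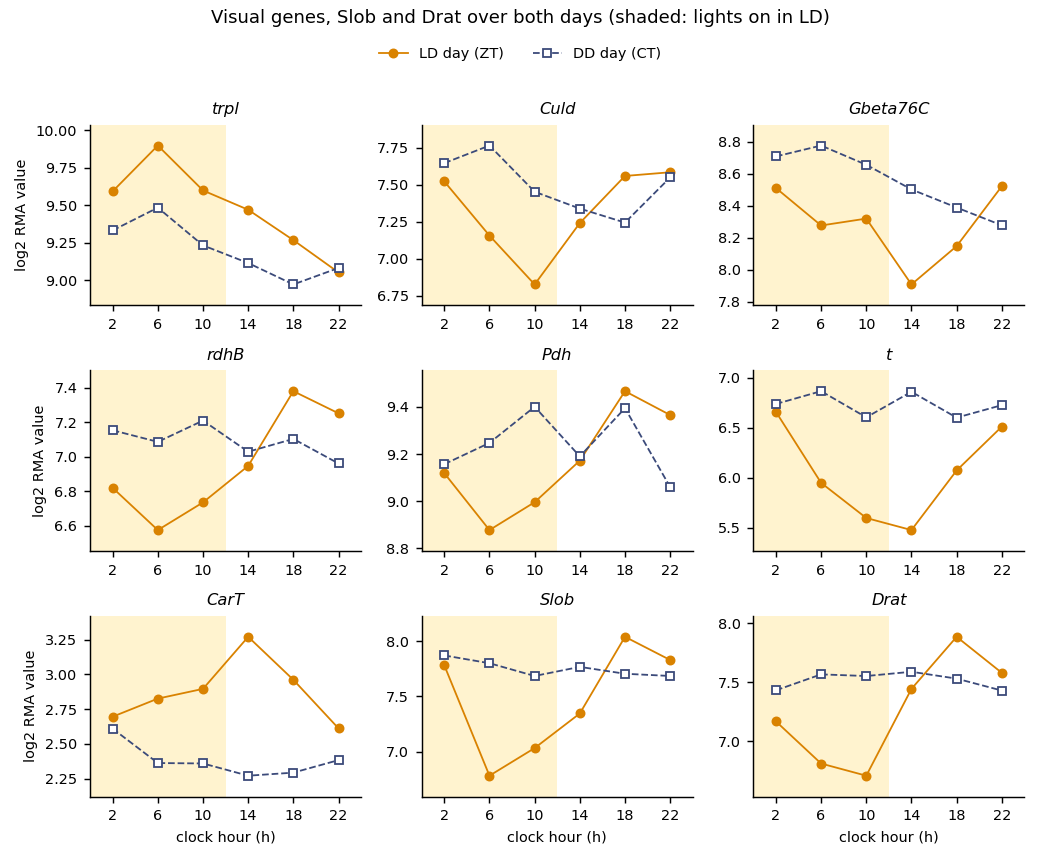
Log2 RMA values (y axis, scaled per panel) over clock hours 2 to 22 (x axis) for 7 visual genes, Slob and Drat; filled circles are the LD day and open squares the DD day, 1 array per point, with the lit hours shaded. In light t reached 5.596 at ZT10, against 6.604 at CT10, and Slob 6.79 at ZT6, against 7.80 at CT6.

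Of 25 screening pigment genes 3 lay above without overlap (12.0%, near the 9.66% of all probe sets) and 4 below (16.0%, against 3.96%). The lower ones included ry, the xanthine dehydrogenase of pteridine synthesis, at 5.38, 5.45 and 5.67 in LD light, against 5.92, 5.87 and 5.80 in DD subjective day, a difference of -0.37 (SE 0.090, limma adjusted p = 0.391), and se, of drosopterin synthesis, at 5.76, 5.51 and 5.66 in light, against 6.002, 5.94 and 5.87 in DD, a difference of -0.29 (SE 0.074, limma adjusted p = 0.396). The gene rb, which encodes a subunit of the adaptor complex that serves pigment granules, measured 4.68, 4.78 and 4.75 in light, against 4.51, 4.55 and 4.502 in DD, a difference of 0.21 (SE 0.069, limma adjusted p = 0.515). None of the 3 passed.

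Of 17 core clock genes 0 passed, the median was -0.03, and 7 were higher in light. Usp8 had the widest gap, at 0.78, and the other 16 lay between -0.23 and 0.22. All lit arrays lay above all dark-day arrays in 2 (11.8%, against 9.66% of all probe sets) and below in 0. Beside Usp8, per lay above without overlap, at 5.12, 5.17 and 5.11 in LD light, against 4.82, 4.92 and 5.002 in DD subjective day, a difference of 0.22 (SE 0.087, limma adjusted p = 0.577). The activator genes Clk and cyc were at -0.04 and -0.03, the regulators vri, Pdp1 and cwo at -0.11, -0.03 and 0.09, and the photoreceptor gene cry at 0.09. For Pdp1 the pairs ran from one side to the other, at 0.51, -0.26 and -0.33. The kinase genes dco and Dyrk2 were at 0.15 and -0.23, the phosphatase subunit gene tws at 0.07, and the protein degradation genes slmb, jet and Fbxl4 at -0.20, 0.01 and -0.04. The neuropeptide gene Pdf was at -0.07 and its receptor gene Pdfr at -0.14. The signs of Clk, Pdp1, cwo, cyc, slmb, jet, Fbxl4, tws and tim turned when 1 pair was left out.

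Of 20 clock output candidates 2 lay above without overlap (10%, against 9.66% of all probe sets) and 4 below (20.0%, against 3.96%), and the median was 0.01. Of those below, Drat and Sirup had been named by earlier results of these same data, so this share is only a description. Slob, whose protein binds the Slowpoke potassium channel, measured 7.78, 6.79 and 7.04 in LD light, against 7.87, 7.80 and 7.68 in DD subjective day. The pair at hour 2 was alike and the later ones were not, with -0.09, -1.01 and -0.65 by hour, and the mean of -0.58 (SE 0.164, limma adjusted p = 0.454) did not pass. A second probe set of Slob (mean 5.44) differed by 0.09. Achl, another of the 4 below without overlap, at 3.06, 3.05 and 3.0 in light, against 3.31, 3.46 and 3.33 in DD, differed by -0.33 (SE 0.101, limma adjusted p = 0.479). The protein kinase A subunit gene Pka-C3 and the epsin gene lqf are not in this list and had also been named by earlier results of these same data. Pka-C3 measured 4.505, 4.54 and 4.49 in light, against 4.72, 4.66 and 4.70 in DD, without overlap, a difference of -0.18 (SE 0.066, limma adjusted p = 0.552), and lqf was at 0.23, -0.48 and -0.85 by hour.

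Neuronal activity genes had a positive median difference, again largest at hour 2. All lit arrays lay above all dark-day arrays in 6 of 20 genes (30.0%, against 9.66% of all probe sets) and below in 0, the median was 0.09, and 0 passed. With either other scaling the count was 5, where 5.89% or 6.85% of all probe sets lay above. Without the pair at hour 2, 6 or 10 the count was 7, 11 and 10 (35%, 55% and 50%, against 19.3%, 25.4% and 26.2% of all probe sets). The hour medians were 0.22, 0.04 and 0.04. CG14186 measured 5.22, 5.16 and 5.24 in LD light, against 4.66, 4.83 and 4.82 in DD subjective day, a difference of 0.43 (SE 0.101, limma adjusted p = 0.372). The zinc finger gene sr, of the EGR family, measured 5.39, 5.16 and 5.16 in light, against 4.69, 5.03 and 5.02 in DD, with 0.70, 0.13 and 0.14 by hour. The cAMP phosphodiesterase gene dnc was at 0.26 in its highest probe set and between -0.07 and 0.18 in 4 others. Jra, which encodes Jun, CrebB and the potassium channel gene Irk1 were at 0.14, 0.10 and 0.10. Neuron markers leaned the same way at hour 2, beside the lower median of CT2: 22 of 25 were higher in light, with hour medians of 0.25, -0.03 and 0.04, and glia markers had 0.14, -0.04 and 0.02. Over all probe sets the hour medians were 0.07, 0.00 and 0.01. The median of the neuron list was 0.06 as deposited and 0.03 with arrays centred on their medians.

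Of 22 fatty acid and sterol synthesis, 14 glycolysis and 33 fasting and feeding response genes, 16, 10 and 16 were higher in light, and 0 passed. The medians were 0.09, 0.11 and -0.02, against 0.03 over all probe sets. FASN1, the fatty acid synthase, measured 9.36, 9.14 and 8.88 in LD light, against 8.397, 8.64 and 8.77 in DD subjective day, with 0.96, 0.50 and 0.12 by hour and a mean difference of 0.53 (SE 0.185, limma adjusted p = 0.543). It was 1 of 5 among 22 genes of fatty acid and sterol synthesis above without overlap (22.7%, against 9.66% of all probe sets), along with SREBP and Lpin, and 0 lay below. The list had 3 above and 1 below when arrays were centred on their medians, where 5.89% and 7.55% of all probe sets did. After quantile normalization it had 6 above and 1 below, where 6.85% and 6.56% did. In glycolysis 4 of 14 lay above (28.6%, against the same 9.66%) and 0 below, and that count was 4 with either other scaling; Ald1, an aldolase, measured 10.50, 10.45 and 10.38 in light, against 10.10, 10.30 and 10.37 in DD, and Pgi and Pglym78 were at 0.17 and 0.14. Fasting and feeding genes had 4 above (12.1%, against 9.66% of all probe sets) and 5 below (15.2%, against 3.96%). Those counts were 2 and 5 with median centring and 2 and 6 after quantile normalization. Pepck1, of glucose synthesis, was lower at 9.44, 9.71 and 9.41 in light, against 10.25, 10.21 and 9.65 in DD, with ZT10 and CT10 close, a difference of -0.52 (SE 0.132, limma adjusted p = 0.396). Lst, a peptide hormone gene reported to respond to starvation, measured 5.61, 5.93 and 5.87 in light, against 6.35, 6.36 and 6.04 in DD, a difference of -0.45 (SE 0.122, limma adjusted p = 0.434), and bigmax, the partner of the sugar sensor Mondo, was at -0.22. Glys, glycogen synthase, was at 0.21. The fat body storage protein gene Lsp2 measured 10.72, 11.01 and 10.76 in light, against 10.48, 10.60 and 10.52 in DD, without overlap, but was -0.29 at night.

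Stress and defence genes showed no common direction. GstD1 measured 10.31, 10.33 and 10.20 in LD light, against 9.87, 10.07 and 10.01 in DD subjective day, a difference of 0.30 (SE 0.070, limma adjusted p = 0.372), and 9 of 51 transferase genes lay above without overlap (17.6%, against 9.66% of all probe sets) and 4 below (7.84%, against 3.96%). The transferase counts were 7 and 6 with median centring, where 5.89% and 7.55% of all probe sets lay above and below. After quantile normalization they were 10 and 6, where 6.85% and 6.56% did. Of 71 cytochrome P450 genes 2 lay above, where 9.66% of all probe sets did, and 8 below (11.3%, against 3.96%), led by Cyp6a9 at -0.35 and Cyp6d5 at -0.28. Immune genes had 3 of 27 above (11.1%, near the 9.66% of all probe sets) and 2 below (7.41%, against 3.96%). Def, the peptide defensin, measured 6.77, 6.84 and 6.38 in light, against 6.89, 7.02 and 7.19 in DD, and BomS2 was at -0.35. Of 18 blood cell genes 2 lay above without overlap and 3 below, where 9.66% and 3.96% of all probe sets did, and the median was 0.05. Among them the transcription factor gene lz, of crystal cells, measured 3.01, 3.20 and 2.88 in light, against 3.28, 3.51 and 3.45 in DD. It differed by -0.38 (SE 0.077, limma adjusted p = 0.32), while NimC1, of the same list, was higher in light, at 0.22. Of 21 DNA repair genes 2 lay above (9.52%, near the 9.66% of all probe sets), Ku80 and Xpd, both with means below the lower quartile of the arrays.

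Cuticle genes had 10 of 78 above without overlap (12.8%, near the 9.66% of all probe sets) and 0 below, and 7 and 2 when arrays were centred on their medians, where 5.89% of all probe sets lay above and 7.55% below. Ribosomal protein genes had 5 of 37 above (13.5%, against 9.66% of all probe sets) and 8 below (21.6%, against 3.96%), and 0 and 9 with that centring. Oxidative phosphorylation had 2 above and 3 below of 71 (2.82% and 4.23%, against 9.66% and 3.96% of all probe sets). Lists of tissues outside the head, of which midgut, male and thorax muscle genes make up the body-tissue score, had lower medians at hour 10 than at hours 2 and 6. At hours 2, 6 and 10 the medians were 0.04, 0.20 and -0.20 for midgut, 0.01, 0.09 and -0.23 for male genes, 0.04, 0.19 and -0.23 for digestive enzymes and 0.09, -0.05 and -0.10 for thorax muscle. Below without overlap lay 1 of 23 midgut (4.35%), 1 of 38 male (2.63%), 3 of 50 digestive (6.0%) and 2 of 21 muscle genes (9.52%), against 3.96% of all probe sets. Above lay 0 midgut, male and digestive genes and 2 muscle genes (9.52%), against 9.66%. As these are bulk samples, fewer cells of a type and less RNA per cell cannot be told apart.

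**Figure D5:**
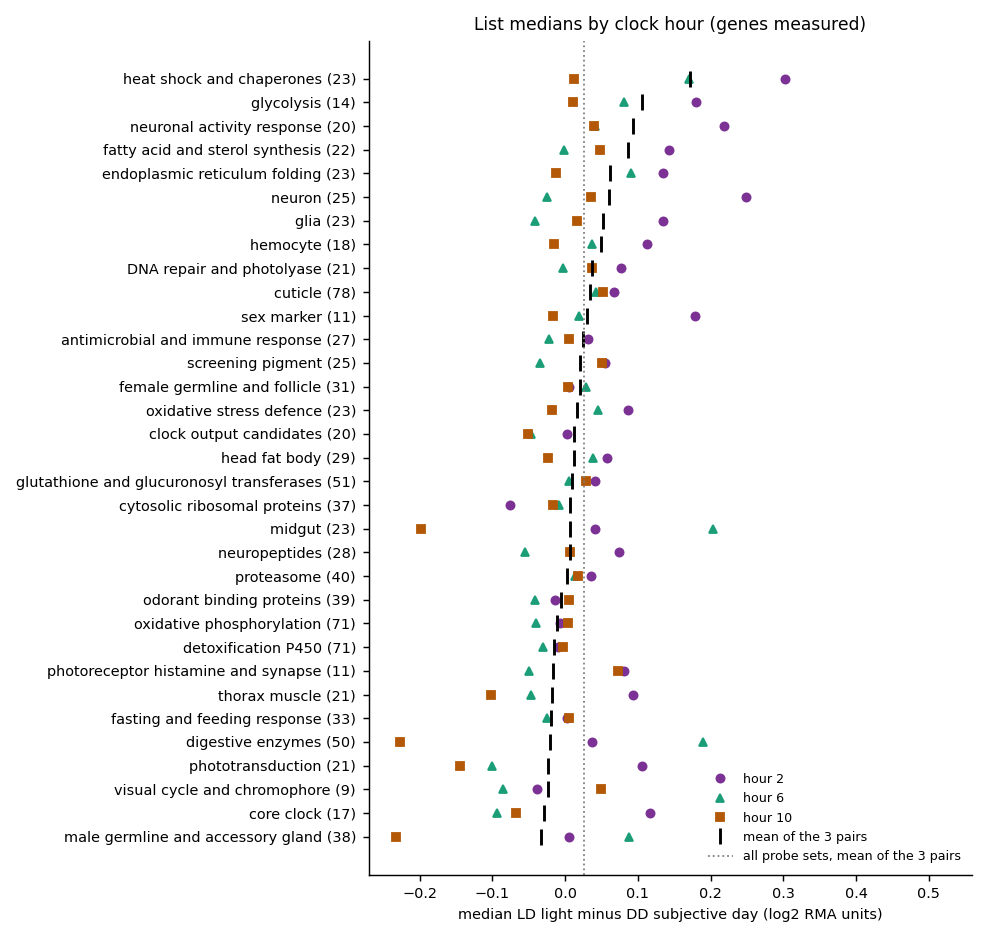
Median difference between LD light and DD subjective day (x axis, log2 RMA units) for the 33 gene lists (y axis, number of measured genes in brackets); circles, triangles and squares are the medians at hours 2, 6 and 10, bars the medians of the mean over the 3 pairs, and the dotted line that of all probe sets, 0.03. Heat shock genes lie highest at hour 2 (0.30), and midgut, male and digestive lists are at about -0.2 at hour 10.

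No probe set passed a test of whether the difference changed with time in light. In limma 0 of 13966 had a slope over hours 2, 6 and 10 past the threshold, and 825 had an unadjusted p under 0.05. The 4 genes with the smallest p all had smaller or more negative differences at the later hours. The chaperone gene Hsc70-4 had a slope of -0.14 per hour (SE 0.024, limma adjusted p = 0.764). The synapsin gene Syn measured 3.04, 2.80 and 2.48 in LD light, against 2.40, 2.63 and 3.02 in DD subjective day, and had a slope of -0.15 per hour (SE 0.025, limma adjusted p = 0.738). Its lit values were lower and its dark values higher at each later hour. Plc21C, a phospholipase C gene, and shot, a cytoskeletal linker gene, had slopes of -0.10 and -0.10 per hour. Syn and Plc21C had means below the lower quartile of the arrays. Of all probe sets 62.4% had a larger difference at hour 2 than at hour 10, beside the lower median of CT2.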

How the data were processed

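The files hold 1 table of log2 values for 12 arrays, which the authors deposited. RMA was the tool, per the submitters' processing notes. Which version, and over which arrays it ran, the sources used here do not give. The table held 0 columns of other samples. Controls were left out. The platform annotation gave 1 symbol for 12442 probe sets, several for 327 and none for 1197, and only the first kind was named. A gene with several probe sets is represented by the one with the highest mean over the 12 arrays.

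limma 3.58.1 in R 4.3.3 was fitted to all 12 arrays, with clock hour as a factor of 6 levels and separate LD minus DD differences by day and by night (4 residual degrees of freedom), or with 1 more slope for hours 2, 6 and 10 (3 residual degrees of freedom). Tests are two-sided, Benjamini-Hochberg adjusted over all 13966 probe sets, with a threshold of 0.05. They measure only the spread among these arrays, whose number limits the precision. The fits were checked on simulated data.

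Arrays were paired by the clock hour of their titles. Deviations from the group means correlated at 0.315, -0.075 and 0.128 for hours 2, 6 and 10, so the pairing rests on the hour and not on the data.

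The members and lists were chosen with earlier results of these data known. The rule named up to 12 genes in each direction past the threshold, filled to 8 by the smallest p, 4 genes by p for the slope, the genes past the threshold by day against night, 3 in each of 33 lists, the core clock list, y, and 10 genes that earlier results had named. Other genes in the text are list members without overlap between the groups or with the opposite sign, chosen after their values were seen. Lists are described by counts and medians, with no test. They cover only part of each pathway where names were not matched to a named probe set. This held for 13 of 35 phototransduction, 15 of 38 heat shock and 24 of 51 immune names. Alternatives were no block, only the 6 arrays, 2 scalings, a filter on dim probe sets, a trended robust prior, array weights, a body-tissue covariate and leaving out each pair, and for gene lists the mean of a gene's probe sets. No sequence is shown, since no file used here holds any.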

Additional observations from a re-analysis of the deposited data

Results flagged for a closer look

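The adult cuticle protein gene Acp1 is listed because its difference between the LD and the DD day was another by day than by night. The day difference was -0.44 (limma adjusted p = 0.306). The night difference, with both days dark, was 0.75 (limma adjusted p = 0.00957). The day difference minus the night difference was -1.19 (limma adjusted p = 0.0196). Each of the 3 day pairs was lower and each of the 3 night pairs higher on the LD day.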

How the results depend on the processing

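The count of probe sets that differed between LD light and DD subjective day, 1 as reported, was 0 with no replicate block (clock hours not paired), 0 after quantile normalization and 0 after median centring, 2 with a trended robust prior and 4 with the 6 arrays alone, and 0 to 3 with 1 pair left out (0 without any day pair and without the hour 18 pair). CG5455 was at 0.62 with no replicate block, 0.60 after quantile normalization and 0.59 after median centring, and passed in none of these, and at 0.59 to 0.66 with 1 pair left out. Usp8 passed with the 6 arrays alone (limma adjusted p = 0.0426) and without the hour 14 pair (0.0279), and CCT8 with a trended robust prior (0.0408). The count for day minus night, also 1, was 0 with no replicate block, 4 with a trended robust prior, 2 with the body-tissue covariate, and 0 to 76 with 1 pair left out; it was 0 without the pairs at hours 2, 6 and 14, and 76 without the one at hour 22. Acp1 was at -1.19 (adjusted p = 0.665) with no replicate block and at -1.29 to -1.05 with 1 pair left out. The count for the slope was 0 in each alternative run.

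Alternatives for the counts without overlap were chosen after seeing the data. Over all probe sets, 823 lay above and 1055 below after median centring and 956 and 916 after quantile normalization. With 1 pair left out, 2689 to 3654 lay above and 1253 to 2391 below, since 2 arrays against 2 overlap less often; the heat shock list had 7 to 16 above, endoplasmic reticulum folding 6 to 15 and neuronal activity 7 to 11. Signs that turned belonged to genes far from the threshold. With 1 pair left out Clk was at -0.12 to 0.11, Fbxl4 at -0.122 to 0.004, Pdp1 at -0.29 to 0.12, cwo at -0.0355 to 0.173, cyc at -0.0475 to 0.005, jet at -0.14 to 0.094, slmb at -0.39 to 0.0055, tim at -0.15 to 0.0315, tws at -0.024 to 0.12 and y at -0.069 to 0.034. jet was at -0.0274 after quantile normalization and -0.0277 after median centring. The causes were not tested. Of the other values of named genes, 534 kept their direction and side of the threshold, and of the list medians 103 moved by less than the spread between pairs and 9 by more, each after rescaling or without 1 day pair.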
